A study of Mus musculus with 7 samples.

Results

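Interleukins are small secreted proteins through which immune, epithelial and stromal cells signal to one another, and each acts through receptor chains on the surface of the responding cell. Most of these receptors work in pairs and share chains, such as the common gamma chain encoded by Il2rg or gp130 encoded by Il6st, and pass the signal on through JAK kinases and STAT factors, while receptors of the IL-1 and IL-17 families use adaptor proteins instead. In the mammary gland, macrophages, T cells, mast cells, adipocytes and epithelium are all known to make or to receive interleukin signals.

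The interleukins and interleukin receptors were taken as all non-control probes whose gene name in the array files begins with Il and a number, without Il7 and Il7r. The rule found 143 probes of 80 genes among 56605 probes on the array. It used names alone and no measured value. Of the 80 genes, 37 were counted by name as ligands and 39 as receptor chains. The other 4 are the receptor antagonist Il1rn, the binding protein Il18bp, the enzyme Il4i1 and the antisense transcript Il1bos. Il1f5 was thereby counted as a ligand and Il22ra2 as a receptor chain, without regard to function.

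The arrays compared 3 wild-type with 4 PRA transgenic mice, all nulliparous FVB females of 20 to 25 weeks killed at diestrus. PRA transgenic mice are bigenic and carry CMV-GAL-4, in which the CMV promoter drives the GAL-4 activator, together with UAS-PR-A, which adds the A form of the progesterone receptor wherever GAL-4 is made, so that the transgene is not limited to one cell type. The labels call the wild-type gland normal and the PRA transgenic gland preneoplastic. From each animal, 1 abdominal gland with its lymph nodes removed was labeled with Cy5 and set on the array against Universal Mouse Reference RNA in Cy3, which pools RNA of mouse cell lines and includes T-lymphocyte, B-lymphocyte and alveolar macrophage lines. Values below are log2 ratios of gland to reference, so that 0 means equal signal in both, and arrays are named WT1 to WT3 and PRA1 to PRA4 by their replicate numbers. The P values of probes set the difference between genotypes against the spread between arrays of the same genotype. With 1 array per animal, spread between animals and technical spread cannot be told apart, and 7 arrays allow limited precision.

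Markers of mammary tissue were present. All 7 markers of luminal epithelium, all 6 of basal epithelium and all 6 of white adipocytes passed the detection filter described below. WT1 stood apart from the other arrays in lymphocyte genes. The mean log2 ratio of the 9 T cell markers was 1.63 in WT1, against -0.47 in WT2, -0.10 in WT3 and -0.40, -0.29, -0.78 and -0.63 in PRA1 to PRA4. The 4 tested B cell markers averaged 0.76 in WT1 and between -1.62 and -0.78 in every other array. Of 5 tested markers of lymph node stroma 2 were also far higher in WT1, although the nodes had been removed. Cr2, of follicular dendritic and B cells, was 4.87 in WT1 and at most 1.09 in any other array, and the chemokine gene Ccl19 was 6.09 against at most 3.80. The other 3 peaked elsewhere, Ccl21a and Glycam1 in WT3 (4.21 and 4.93) and Cxcl13 in PRA2 (5.54), and the summed Cy5 signal of the list, led by Glycam1, was 21670 in WT1 and 106600 in WT3. Results that rest on WT1 are given with and without it below, and the part of lymph node tissue in them was not tested. All arrays shared 1 slide, with wild-type in its row 1 and PRA transgenic in its row 2, and these rows cannot be told apart from genotype.

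Fewer interleukin probes were seen on each PRA transgenic array than on any wild-type array, and the whole array and the reference channel moved the same way. A probe was counted as seen where its signal was marked well above background. In Cy5, 95, 81 and 84 of the 143 interleukin probes were seen in WT1 to WT3, and 68, 74, 70 and 80 in PRA1 to PRA4. The means were 86.7 ± 7.37 (SD) and 73 ± 5.29 (SD), and the two-sided exact permutation test over the 35 assignments of arrays gave p = 0.0571. Over all probes the share seen in Cy5 was 64.7% ± 1.79 in wild-type and 58.6% ± 1.73 in PRA transgenic arrays, and the exact permutation p was 0.0286, the smallest that this design allows. The reference channel, which holds the same RNA on every array, moved the same way, with 68.3 ± 1.15 interleukin probes seen in wild-type and 60.2 ± 4.35 in PRA transgenic arrays. The part of this shift in the differences between genotypes was not tested.

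**Figure D1:**
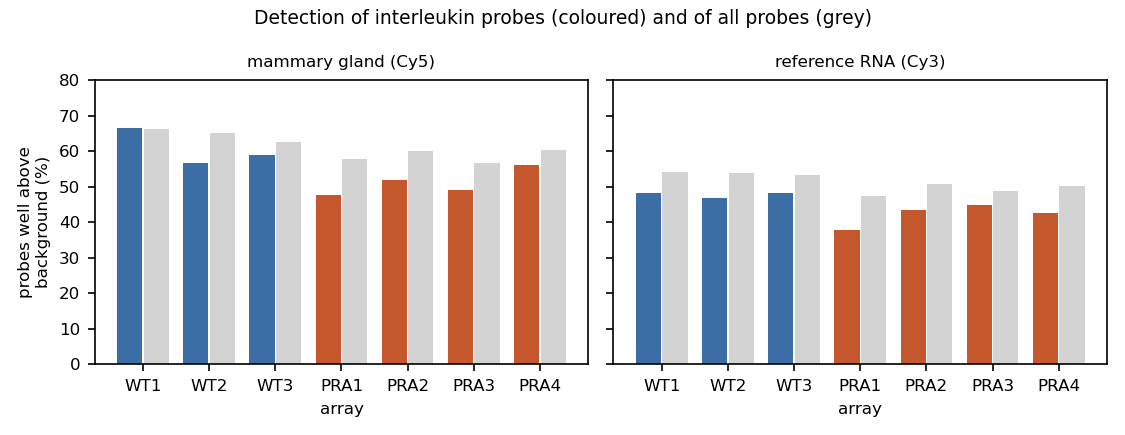
Percent of probes well above background on each of the 7 arrays, for the 143 interleukin probes (blue in wild-type, orange in PRA transgenic) and for all probes (grey), in the gland channel on the left and the reference channel on the right. Interleukin probes were seen less often than all probes on every array except WT1 in Cy5, and both sets were lower in PRA transgenic arrays in both channels.

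Receptor chains were seen more widely than ligands in these glands. Of the 39 receptor chain genes, 30 had a probe above background in Cy5 on all 7 arrays and 3 on none, whereas of the 37 ligand genes 10 were seen on all 7 arrays and 10 on none. Not above background on any array were Il1a, Il1bos, Il1f9, Il1rapl2, Il9, Il31, Il20, Il20ra, Il23r, Il17a, Il17c, Il17f, Il3 and Il5. Among these 14 are the T helper cytokines Il17a, Il17f, Il5 and Il9. Other T helper cytokines were seen, with Il21 on 7 arrays, Il22 on 5, Il4 on 4 and Il13 on 3. On 1 array at most were Il1f5, Il1f6, Il1rapl1, Il6, Il10, Il22ra2, Il12a and Il23a. On 2 arrays were Il1f10, Il2, Il9r and Il19, on 3 Il25, and on 4 Il31ra and Il5ra.

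Il6, Il10 and Il20ra were not well above background in the gland, or on 1 array at most, although their probes gave signal in the reference on these arrays. Il6 encodes an inflammatory cytokine and Il10 an anti-inflammatory one. Both Il6 probes, 1 Il10 probe and 1 Il20ra probe were above background in the reference RNA on all 7 arrays. In the gland the log2 ratio of the Il10 probe lay between -4.55 and -2.70, and it was above background on 1 array.

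For tests between genotypes, probes were kept that were seen in Cy5 in all 3 wild-type animals, in all 4 PRA transgenic animals, or in both. This kept 77 of the 143 interleukin probes, covering 51 of the 80 genes, and left out 66 probes and 29 genes. Of the 77, 64 were seen on all 7 arrays and 13 on all wild-type but not all PRA transgenic arrays. Since a probe that passed through wild-type arrays alone tends to be higher there, totals over the kept probes are given as a description.

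No interleukin probe passed an adjusted p of 0.05 in limma, with adjustment over all 34288 kept probes, of which 0.0117% passed. At an unadjusted P under 0.05, 3 interleukin probes were lower in PRA transgenic glands, which is 3.9% against 4.48% of all kept probes, and 2 were higher, which is 2.6% against 4.54%. With a difference of at least 1.5-fold as well, 3 were lower, or 3.9% against 2.59% of all kept probes, and 0 higher, against 1.94%. The methods' t-test, which is unpaired, gave 2 lower and 2 higher at P under 0.05, where 4.16% and 5.05% of all kept probes were, and also 0 after adjustment, where 0.00292% were. Non-overlapping genotypes showed the same picture, with 3 probes whose 4 PRA transgenic values all lay below the 3 wild-type values and 2 with all above, where 4.51% and 5.41% of all kept probes did so. These shares lay below those of the whole array, except for the 3 probes lower by 1.5-fold, at 3.9% against 2.59%. Counts this small do not set the interleukins apart.

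Counted by gene, with the brightest kept probe in Cy5 standing for each gene, 3 of 51 were lower at P under 0.05, or 5.88% against 4.35% of all genes, and 1 was higher, or 1.96% against 3.6%. The median difference over the 51 genes was -0.12 on the log2 scale, against 0.01 over 22503 genes, and 30 of the 51, or 58.8%, lay below 0, against 47.3% of all genes. Over the 43 interleukin genes seen on all 7 arrays the median was also -0.12. Without WT1 the median of the 51 genes was -0.03, and without PRA3 it was -0.01. By role, the 31 tested receptor chains had a median of -0.12 with 21 below 0, and the 17 tested ligands a median of 0.07 with 7 below 0.

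**Figure D2:**
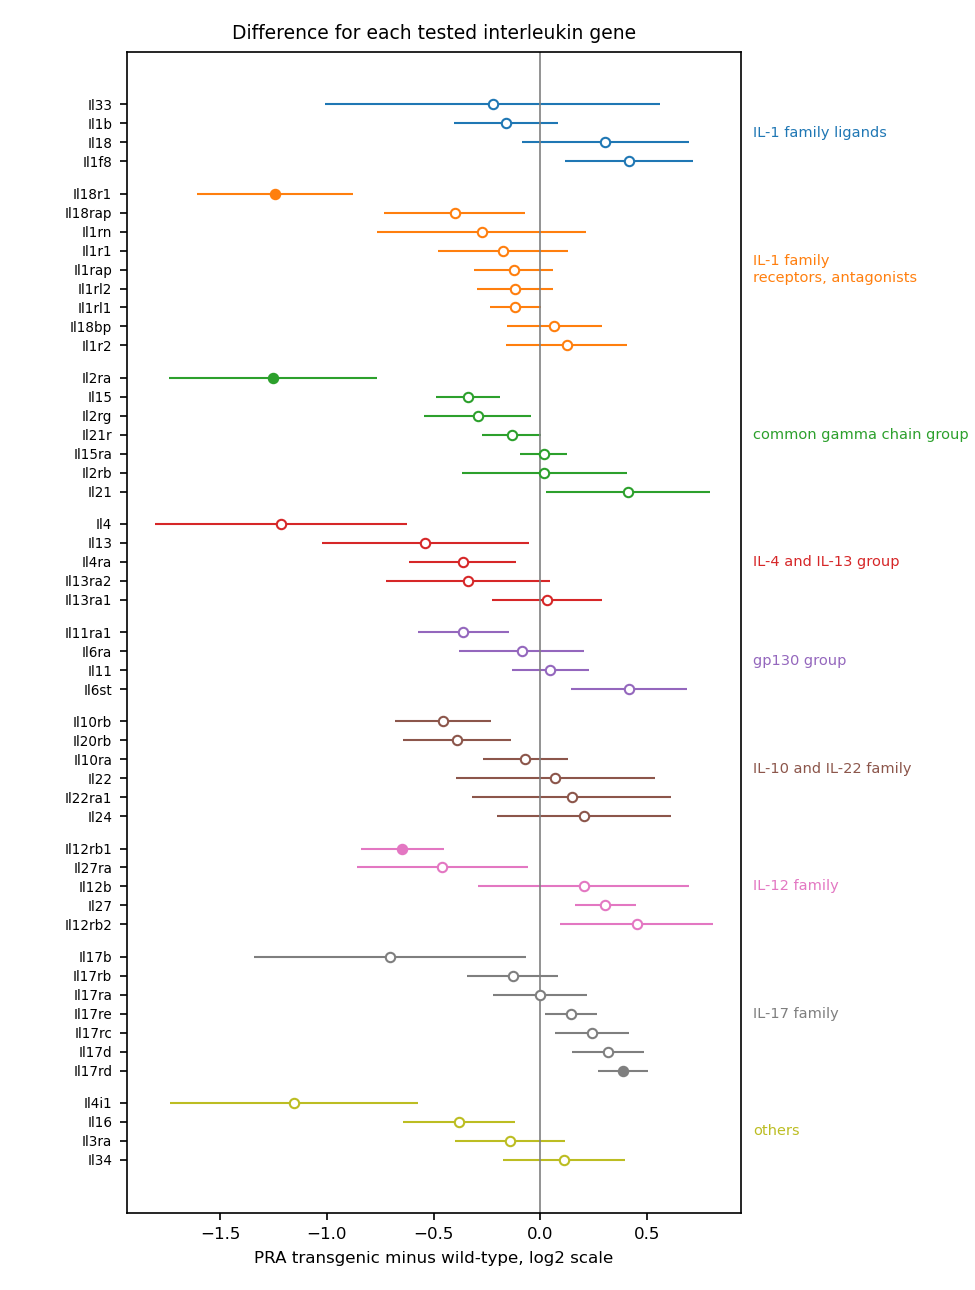
Difference between PRA transgenic and wild-type glands on the log2 scale for each of the 51 tested interleukin genes, grouped by role, with the standard error of the limma estimate as a bar. Filled points mark an unadjusted P under 0.05, which 4 genes reached, with Il18r1, Il2ra and Il12rb1 below 0 and Il17rd above.

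The 4 genes below an unadjusted P of 0.05 were Il18r1, Il12rb1, Il17rd and Il2ra. All encode receptor chains. To show what each probe reads, the first 30 bases of every kept probe of these genes follow as the array files give them, 5′ to 3′ in lower case with no base singled out, since probes of the same gene differed in their result. Positions are the files' own, on mm9.
Il18r1, chr1:40557541-40557600, plus strand: tgtcacaacagctgtgtgtgaaaacctagc
Il12rb1, chr8:73345261-73345320, plus strand: agtttccctattagagtattgggcacttaa
Il2ra brighter probe, chr2:11614744-11614803, plus strand: gtggcttctgtttgatctctctcaatgata
Il2ra dimmer probe, chr2:11570205-11570264, plus strand: gaagattttgagtttgaggccagcacagag
Il17rd brightest probe, chr14:27902088-27902147, plus strand: gaagttatataggttaaggctggcaaacct
Il17rd dimmer probe, chr14:27913180-27913239, plus strand: agaagcagtttatacccttccaacatcccc
Il17rd other dimmer probe, chr14:27920311-27920370, plus strand: atagcactgtgccatatttttacattggcg

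Il18r1 encodes the binding chain of the IL-18 receptor, found on T cells, NK cells and mast cells. Its log2 ratio was 5.49, 4.57 and 4.49 in WT1 to WT3 and 3.56, 4.41, 3.23 and 3.23 in PRA1 to PRA4. The genotypes did not overlap in these ratios, although PRA2 came close to the wild-type arrays, and in Cy5 alone they did overlap, with WT2 at -0.77, below PRA1 at -0.62 and PRA2 at -0.29. The difference was -1.24 (SE 0.37), with adjusted p = 0.424 in limma, and without WT1 it was -0.92, still under an unadjusted P of 0.05. With normexp background correction and loess it was -0.64, also under it. For this probe the reference was below the background limit throughout, so that the size of gland over reference is uncertain and the ratios are given as measured. Part of the difference sat in the reference channel. With Cy5 alone, centered on the median of each array, the difference was -0.68 and not under an unadjusted P of 0.05, while Cy3 alone was 0.58 higher on PRA transgenic arrays and under it. Such a rise was not particular to this probe. Il5 and Il9, unseen in gland and reference on every array, were higher by 0.73 and 0.70 with Cy3 alone. The kept probes of Il13 and Il24, whose reference was also below the limit, differed by 0.015 and -0.16. The cause was not tested.

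Il2ra, which encodes the high-affinity chain of the IL-2 receptor and is known from regulatory and activated T cells, gave a like case. The brighter of its probes was 4.38, 4.57 and 3.68 in WT1 to WT3 and 2.44, 2.10, 3.19 and 4.11 in PRA1 to PRA4. PRA4 lay among the wild-type arrays, so that the genotypes overlapped. The difference was -1.25 (SE 0.49), with adjusted p = 0.52 in limma. Without WT1 it was -1.17 and no longer under an unadjusted P of 0.05, nor was it with normexp and loess, at -0.38. The reference was again below the limit on all 7 arrays, and on 6 of 7 arrays its value was one that the software had put in place of a dim signal. Cy5 alone differed by -0.35 and Cy3 alone by 0.91, and of these the second alone was under an unadjusted P of 0.05. The dimmer probe, whose reference was above background on all 7 arrays, ran from -0.64 to -0.61 in wild-type and from -0.63 to -0.39 in PRA transgenic arrays, a difference of 0.12 (SE 0.11). The Il2ra probes thus disagreed in sign.

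Il12rb1 encodes the receptor chain shared by IL-12 and IL-23, found on T cells and NK cells. Its log2 ratio was -2.14, -2.43 and -2.01 in WT1 to WT3 and -2.51, -2.72, -2.91 and -3.21 in PRA1 to PRA4, without overlap. The difference was -0.65 (SE 0.20), with adjusted p = 0.429 in limma. Here both channels were above background on all 7 arrays and the difference sat in the gland channel, with -0.63 for Cy5 alone and 0.03 for Cy3 alone. It was -0.62 without WT1 and stayed under an unadjusted P of 0.05 there and with Cy5 alone, but with normexp and loess it was -0.27 and no longer under it. The other chain of the IL-12 receptor, Il12rb2, differed by 0.45 (SE 0.36) in the other direction and by 0.05 with Cy5 alone. With 1 array left out it ran from 0.16 to 0.71, the latter without PRA1, where it came under an unadjusted P of 0.05.

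Il17rd, which encodes a receptor-like membrane protein also known as a brake on FGF signaling, was the 1 gene that was higher. The brightest of its 3 kept probes gave 0.38, 0.54 and 0.48 in WT1 to WT3 and 0.77, 0.81, 1.02 and 0.83 in PRA1 to PRA4, without overlap. The difference was 0.39 (SE 0.12), with adjusted p = 0.432 in limma, and 0.34 without WT1, just over an unadjusted P of 0.05. The other probes of the gene differed by 0.20 (SE 0.21) and 0.12 (SE 0.25). Cy5 alone differed by 0.18, not under an unadjusted P of 0.05 and with PRA4 (1.03) below WT1 (1.26) and WT2 (1.20), and Cy3 alone by -0.20, so that about as much of the ratio's difference lay in the reference channel as in the gland channel.

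The fifth probe under P of 0.05 was a dimmer probe of Il17rc, which encodes a chain of the IL-17A and IL-17F receptor. It was -0.83, -0.83 and -1.35 in WT1 to WT3 and -0.64, -0.30, -0.09 and -0.67 in PRA1 to PRA4, a difference of 0.58 (SE 0.21) with adjusted p = 0.483 in limma, and of 0.66 with Cy5 alone. It was no longer under an unadjusted P of 0.05 without PRA2 or without PRA3. The brightest Il17rc probe differed by 0.24 (SE 0.17) and was not under an unadjusted P of 0.05. Of the 21 interleukin genes with several kept probes, 7 had probes that differed in sign, so that a single probe is a weak guide to a gene here.

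**Figure D3:**
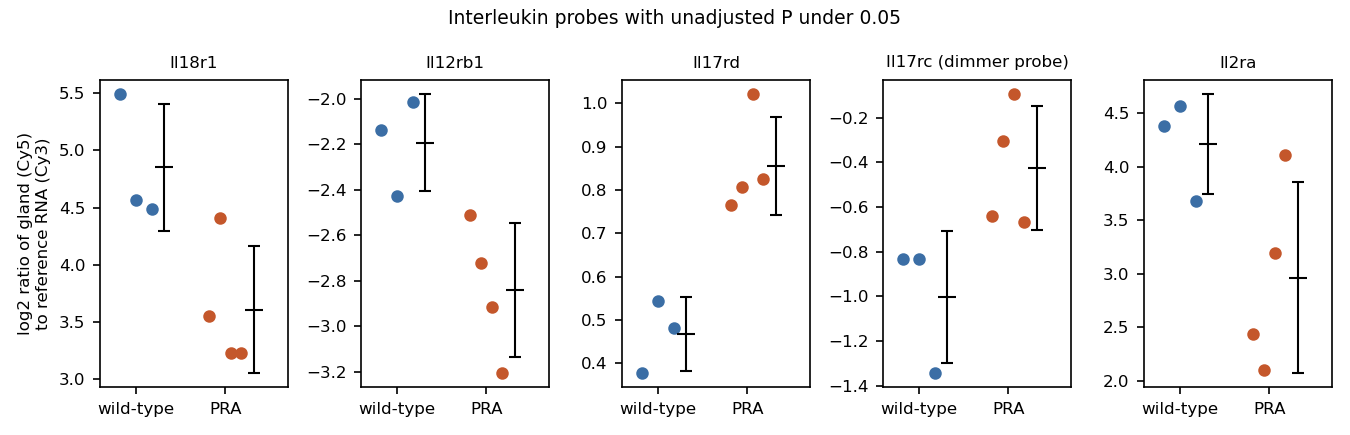
Log2 ratio of gland to reference on each array for the 5 interleukin probes with an unadjusted P under 0.05, in wild-type (blue) and PRA transgenic (orange) mice, with mean and SD beside each group and a separate vertical axis for each probe. In these ratios the genotypes do not overlap for Il18r1, whose reference was below background, Il12rb1, Il17rd and the dimmer Il17rc probe, and they overlap for Il2ra, where PRA4 is at 4.11.

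T cells and NK cells carry the receptors of IL-18, IL-2 and IL-12, and their markers are given beside these results. Of the 9 T cell markers, 1 was lower at P under 0.05 and 0 higher, namely Cd8a with a difference of -2.71 (SE 0.88). Cd8a was 5.06 in WT1, 1.60 in WT2, 2.39 in WT3 and between -0.54 and 1.56 in PRA1 to PRA4, and without WT1 the difference was -1.69. It passed the detection filter through the wild-type arrays alone, where it is high, being above background in the gland of 1 PRA transgenic animal, so that its P is no support for a difference. Its reference was above background on 0 arrays, with a surrogate value on 6. With Cy5 alone it differed by -2.17. The summed Cy5 signal of the T cell list was 9552, 2632 and 2515 in WT1 to WT3 and 2753, 2266, 2020 and 2246 in PRA1 to PRA4, and Cd3e was its brightest gene. Of the 5 NK cell markers, the log2 ratios of Klrb1c (-0.56, SE 0.21) and Prf1 (-0.40, SE 0.14) were lower at P under 0.05, but their gland signal was not. With Cy5 alone Klrb1c differed by -0.04 and Prf1 by 0.93 in the other direction, the latter under an unadjusted P of 0.05, while Cy3 alone was higher by 0.53 and 1.34 on PRA transgenic arrays. The reference of Klrb1c was above background on 0 arrays. Without WT1 neither ratio was under an unadjusted P of 0.05. Gzma, the brightest, differed by 0.74 (SE 0.35) upward, by 0.75 with Cy5 alone and by 1.04 without WT1, and in both of these settings it came under an unadjusted P of 0.05. The summed NK cell signal was 1910, 1257 and 1048 in WT1 to WT3 and 1930, 1710, 2133 and 1197 in PRA1 to PRA4. No marker of either list was below background on every array. In whole gland RNA, fewer cells of a type and less RNA per cell cannot be told apart, and the part of these cells in the receptor differences was not tested.

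Dendritic cell and myeloid markers were mixed. Of 3 tested dendritic cell markers, Clec9a was lower at P under 0.05, with a difference of -1.37 (SE 0.27) and adjusted p = 0.33 in limma, and of -0.79 with Cy5 alone, its reference being above background on 0 arrays. Of 7 macrophage markers, Cd163 had a higher ratio (0.47, SE 0.17) at P under 0.05, which lay in the reference channel, with 0.01 for Cy5 alone and -0.45 for Cy3 alone. Of 4 tested neutrophil markers, S100a8 was lower (-0.58, SE 0.24, and -0.72 with Cy5 alone) at P under 0.05, but not without WT1 (-0.46). Of 3 tested keratinocyte markers, Lor differed by -0.66 at P under 0.05, but it was above background in the gland of 0 PRA transgenic animals and in the reference on 0 arrays, and passed the filter through wild-type alone. The 6 mast cell markers had a median of 0.29 with 0 under P of 0.05, and with Cy5 alone all 6 lay below 0, from -0.20 for Kit to -0.06 for Cpa3.

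**Figure D4:**
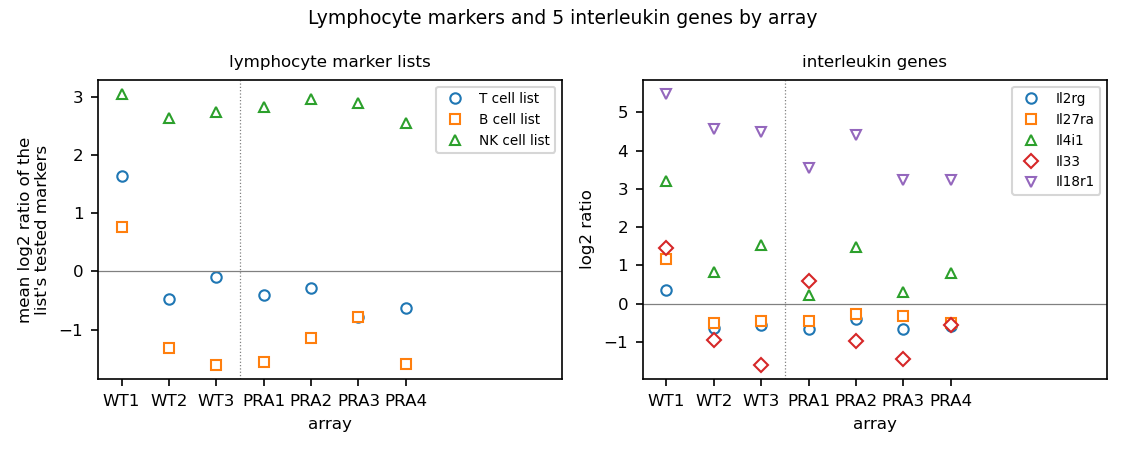
Mean log2 ratio of the tested markers of the T cell, B cell and NK cell lists (left) and log2 ratio of 5 interleukin genes (right) on each of the 7 arrays, with the dotted line between wild-type and PRA transgenic arrays. WT1 is highest for the T cell list at 1.63 and the B cell list at 0.76. Il2rg, Il27ra, Il4i1, Il33 and Il18r1 are shown because WT1 is their highest array. Their match with the lists was thus fixed by the choice and is no support for a link. The receptor genes Il2ra and Il12rb1, not shown here, were highest in WT2 (4.57) and WT3 (-2.01).

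In the IL-1 family, 4 of 10 ligand genes could be tested and none reached P under 0.05. Il33, an alarmin released by stromal and epithelial cells, varied most between animals. It was 1.45, -0.96 and -1.62 in WT1 to WT3 and 0.59, -0.98, -1.45 and -0.57 in PRA1 to PRA4. WT1 and PRA1 were high and the other arrays low, whatever the genotype, and the difference was -0.22 (SE 0.79) with all arrays and 0.69 without WT1. Il18, the ligand of the receptor above, was 1.36, 0.28 and -0.17 in wild-type and 0.75, 0.45, 0.58 and 1.40 in PRA transgenic arrays, a difference of 0.31 (SE 0.39). Without WT1 it differed by 0.74, under an unadjusted P of 0.05 and in the opposite direction to Il18r1. The Il18 difference was -0.02 without WT3 and 0.11 without PRA4. Il1b, the inflammasome product, was 0.77, 0.02 and 1.08 in wild-type and 0.52, 0.55, 0.41 and 0.36 in PRA transgenic arrays, a difference of -0.16 (SE 0.24). Its reference was above background on 1 array, and the difference was -0.59 with Cy5 alone, -0.46 without WT2 and 0.07 without WT3. Without WT2 it came under an unadjusted P of 0.05. Il1b passed the filter through wild-type alone, with 3 of 4 PRA transgenic arrays above background, so that this is no support for a difference.

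Among the IL-1 family receptors and antagonists, 9 of 11 genes were tested, and Il18r1 alone reached P under 0.05. Il1r1, the signaling receptor of IL-1, was 0.27, 0.49 and -0.44 in wild-type and 0.17, -0.63, -0.17 and 0.34 in PRA transgenic arrays, with overlapping genotypes and a difference of -0.17 (SE 0.30). Il1rl1, the receptor of IL-33, varied little by its brightest probe. It was -4.27, -4.26 and -4.31 in wild-type and -4.26, -4.47, -4.55 and -4.31 in PRA transgenic arrays, far below the reference in every animal, with a difference of -0.12 (SE 0.12). Its other kept probe varied more, from -4.11 to -2.93, with a difference of -0.35 (SE 0.29). The decoy receptor Il1r2 and the antagonist Il1rn differed by 0.12 and -0.28, each by less than its spread.

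In the common gamma chain group, 7 of 10 genes were tested. Il2rg, the shared chain itself, was 0.35, -0.64 and -0.57 in WT1 to WT3 and -0.66, -0.40, -0.67 and -0.59 in PRA1 to PRA4. WT1 alone was high, and the difference moved from -0.29 (SE 0.25) with all arrays to 0.03 without WT1. Il2rb, the chain that IL-2 and IL-15 share, was 2.92, 1.40 and 2.08 in wild-type and 2.78, 1.94, 1.86 and 2.03 in PRA transgenic arrays, with WT1 and PRA1 high. Its difference was 0.02 (SE 0.39) with all arrays and ran from -0.35 to 0.41 with 1 array left out. Il15, a survival factor of NK cells and memory T cells, came closest to the threshold of the genes that missed it. It was 1.18, 1.12 and 1.34 in wild-type and 0.61, 1.07, 0.82 and 1.02 in PRA transgenic arrays. The genotypes did not overlap, and the difference was -0.34 (SE 0.15) with adjusted p = 0.576 in limma, or -0.07 for the median over its kept probes. With Cy5 alone it was -0.45, under an unadjusted P of 0.05. Its own receptor chain Il15ra differed by 0.02.

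All 5 genes of the IL-4 and IL-13 group, the cytokines of type 2 immunity and their receptors, were tested with none under P of 0.05. Of the 5, 4 lay below 0, where 47.3% of all genes did. Il4 and Il13 among them passed the filter through wild-type alone, so that this count is no support for a difference. Il4ra, the chain that both cytokines use, was 1.06, 0.55 and 0.09 in wild-type and 0.17, 0.32, -0.13 and 0.44 in PRA transgenic arrays. Its difference was -0.36 (SE 0.25) with all arrays and -0.12 without WT1. Il13ra1, the signaling partner of Il4ra, was 0.60, -0.03 and -0.37 in wild-type and 0.01, -0.20, 0.14 and 0.45 in PRA transgenic arrays. Its difference was 0.03 (SE 0.26) with all arrays and ran from -0.19 to 0.30 with 1 array left out. Il4 itself showed a larger gap, with 2.17, 2.11 and 1.78 in wild-type and -0.59, 1.02, 0.56 and 2.24 in PRA transgenic arrays, but PRA4 was as high as the wild-type arrays, the reference was below background throughout, and the difference of -1.22 (SE 0.59) was not under an unadjusted P of 0.05. With Cy5 alone it was -0.62, and with normexp and loess it was 0.0033. Without PRA4, the highest PRA transgenic array, it was -1.69 and came under an unadjusted P of 0.05, but Il4 passed the filter through wild-type alone, with 1 PRA transgenic array above background, so that this is no support for a difference.

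Il13 was one of 4 interleukin probes, 2.8% of the 143 against 1.35% of all probes, that were above background in the gland of all 3 wild-type and no PRA transgenic animal. The other 3 were probes of Il24, of Il18rap, the second chain of the IL-18 receptor, and a further probe named Il17rc. That probe lies on the minus strand, opposite to the other Il17rc probes, so that its values are not taken as those of the Il17rc mRNA. No probe, interleukin or other, was seen in all PRA transgenic and no wild-type arrays, a share of 0%. The arrays were scaled to each other, with each dim array set at the lowest signal still called above background if the probe lay under it. Il13 was then at least 1.24-fold higher in wild-type and the minus-strand probe at least 1.1-fold higher, while Il24 and Il18rap allowed no fold. Such a bound rests on Cy5 alone, which labeled every gland, with no dye swap to balance dye bias. These probes were chosen as seen in wild-type alone, so that a bound above 1 is no support for a difference, and detection was lower in PRA transgenic arrays over the whole array in both channels. For Il13, Il24 and the minus-strand probe the reference too was above background on 0 arrays, so that their log2 ratios have no meaningful order and are given as measured. Il13 was 0.19, 1.72 and 1.25 in wild-type and 1.25, 0.92, 0.24 and -0.36 in PRA transgenic arrays. Il24 was -0.14, -0.52 and 0.63 in wild-type and 0.83, -0.36, -0.35 and 0.68 in PRA transgenic arrays. Il18rap was -2.90, -3.86 and -3.76 in wild-type and -4.61, -3.68, -3.63 and -3.71 in PRA transgenic arrays, against a reference above background on all 7 arrays. Its PRA transgenic values rest on a gland signal not above background and are given as measured. The minus-strand probe was 0.32, 0.67 and 1.55 in wild-type and 1.25, 0.998, 0.72 and 1.36 in PRA transgenic arrays.

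In the gp130 group, named for the chain shared by IL-6, IL-11 and related cytokines, 4 of 7 genes were tested and none reached P under 0.05. Il6st, which encodes gp130, was 0.67, 0.52 and -0.22 in wild-type and 0.56, 0.57, 0.59 and 1.23 in PRA transgenic arrays. Its difference was 0.42 (SE 0.27) with all arrays and ran from 0.14 to 0.59 with 1 array left out. Il6ra, the IL-6 binding chain, was 1.28, 1.28 and 0.75 in wild-type and 1.32, 0.71, 0.49 and 1.54 in PRA transgenic arrays, a difference of -0.09 (SE 0.29). The dimmer of its 2 kept probes went the other way, with 0.82 (SE 0.41) and 0.20 for Cy5 alone, and came under an unadjusted P of 0.05 without PRA3. Il11ra1, which binds IL-11, was 2.39, 2.36 and 1.80 in wild-type and 2.04, 1.43, 1.95 and 1.88 in PRA transgenic arrays, a difference of -0.36 (SE 0.21). The genotypes overlapped for all 3 genes. Il6ra was above the reference on all 7 arrays, while Il6 itself was seen on 1 array at most with either probe.

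In the IL-10 and IL-22 family, 6 of 11 genes were tested and none reached P under 0.05. Il10ra, the binding chain of the IL-10 receptor, was 2.91, 2.95 and 2.66 in wild-type and 2.71, 2.61, 2.51 and 3.24 in PRA transgenic arrays, well above the reference in every animal, with a difference of -0.07 (SE 0.20). Il10rb, the chain that IL-10 shares with IL-22, was 0.71, 1.06 and 0.66 in wild-type and 0.23, 0.22, 0.08 and 0.90 in PRA transgenic arrays. PRA4 was as high as the wild-type arrays and the other 3 were lower, with a difference of -0.45 (SE 0.22) and adjusted p = 0.607 in limma. Without PRA4 it was -0.64 and came under an unadjusted P of 0.05.

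In the IL-12 family, 5 of 8 genes were tested, with Il12rb1 lower and 3 genes above 0. Il27ra, the receptor of IL-27, was 1.17 in WT1 and between -0.51 and -0.27 in every other array. Its difference was -0.46 (SE 0.40) with all arrays and 0.09 without WT1. In the IL-17 family, 7 of 11 genes were tested. Il17ra, the chain shared by the IL-17 receptors, was -0.10, -0.66 and -0.91 in wild-type and -0.78, -0.60, -0.59 and -0.25 in PRA transgenic arrays, with equal means of -0.56 in both genotypes (SE of the difference 0.22). The ligands Il17b and Il17d, which do not come mainly from T cells, were seen in the gland, whereas Il17a and Il17f were not. Il17b was between 3.18 and 5.67 with a difference of -0.70 (SE 0.64), which moved to -1.30 without WT2, -1.12 without PRA2, -0.46 without PRA1 and -0.19 without WT3, and its reference was below background on all arrays.

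Of the remaining 7 genes, 4 were tested. Il34, a ligand of the macrophage receptor Csf1r, was 1.44, 1.74 and 0.88 in wild-type and 1.57, 1.00, 1.31 and 1.97 in PRA transgenic arrays, a difference of 0.11 (SE 0.29). Il16, a chemoattractant for CD4 cells, was 1.45, 0.79 and 0.44 in wild-type and 0.47, 0.47, 0.25 and 0.87 in PRA transgenic arrays. WT1 was highest, and the difference was -0.38 (SE 0.26) with all arrays and -0.10 without WT1. A dimmer Il16 probe, seen on all wild-type and 1 PRA transgenic array, differed by -0.67 (SE 0.37) and came under an unadjusted P of 0.05 without WT1. That probe was kept through wild-type alone, so that this is no support for a difference. Il4i1, an amino acid oxidase of antigen-presenting cells and B cells, was 3.21, 0.81 and 1.54 in wild-type and 0.22, 1.48, 0.31 and 0.79 in PRA transgenic arrays, again with WT1 highest. Its difference was -1.15 (SE 0.58) with all arrays and -0.47 without WT1, neither under an unadjusted P of 0.05, while without WT2 it was -1.68 and came under it.

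Set against the reference, the glands held some interleukin genes far above and some far below the pooled cell lines. For 35 of the 51 tested genes the reference was above background on all 7 arrays. Of these, 16 were above the reference on all 7 arrays, 7 below on all 7 and 12 on both sides. Above it on every array were Il17re (3.23 to 3.56), Il10ra (2.51 to 3.24), Il1rl2 (2.46 to 3.11) and Il17d (2.23 to 2.88). Below it on every array were Il1rl1 (-4.55 to -4.26), Il18rap (-4.61 to -2.90), Il11 (-2.88 to -2.29) and Il12rb1 (-3.21 to -2.01). The Il18rap values of PRA transgenic arrays are given as measured, since its gland signal there was not above background. Ratios of gland to reference set each gene against its own reference level and do not rank the genes by abundance.

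**Figure D5:**
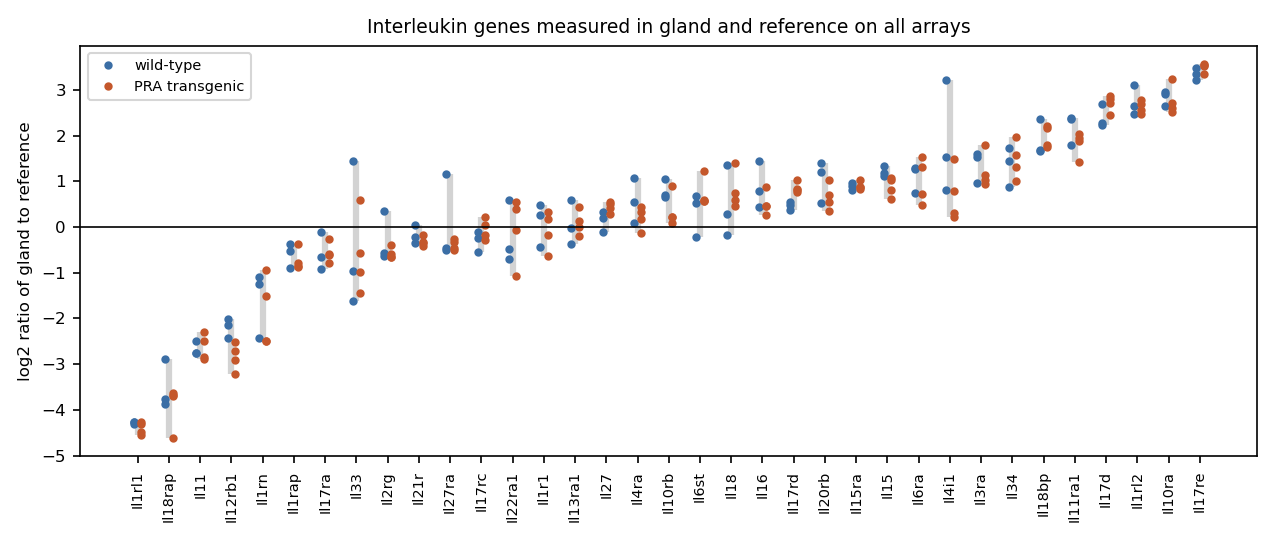
Log2 ratio of gland to reference for the 35 interleukin genes whose reference signal was above background on all arrays, ordered by their mean, with 1 point per array in wild-type (blue) and PRA transgenic (orange) mice and a grey bar from the lowest to the highest array. The genes run from Il1rl1 near -4.3 to Il17re near 3.4, the genotypes overlap for most, and WT1 lies far above the other arrays for Il27ra and Il4i1, while for Il33 both WT1 and PRA1 are high.

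Related signaling genes were read from a list of 51, of which 49 were tested, with JAK kinases, STAT factors, inhibitors and adaptors inside the cell and, outside it, ligands and receptors related to gp130 or to the common beta chain. Lif and Csf2 were not seen often enough. At an unadjusted P under 0.05, 3 of the 49 were lower in PRA transgenic glands and 0 higher, where 4.35% and 3.6% of all genes were. None passed an adjusted p of 0.05 in limma, with a median of -0.02 over the list against 0.01 over all genes. The 3 were Socs1, a feedback inhibitor of JAK kinases, its relative Socs4, and Stat3, the main factor downstream of gp130. Socs1 was -0.53, -0.56 and -0.999 in wild-type and -1.22, -1.51, -1.54 and -1.05 in PRA transgenic arrays, a difference of -0.63 (SE 0.19) with an adjusted p of 0.421 in limma. Socs4 was 0.30, 0.74 and 0.36 in wild-type and 0.07, -0.07, 0.02 and 0.12 in PRA transgenic arrays, a difference of -0.43 (SE 0.14) with an adjusted p of 0.462. Stat3 was 0.40, 0.39 and 0.55 in wild-type and 0.08, 0.28, -0.05 and 0.23 in PRA transgenic arrays, a difference of -0.31 (SE 0.13) with an adjusted p of 0.536. None of these 3 overlapped between genotypes, but they were chosen by their P, and 4.51% of all kept probes lay lower without overlap. Socs7 of the same list was higher without overlap (4.51% lower and 5.41% higher of all kept probes) and not under P of 0.05, with a difference of 0.12 (SE 0.10). For Socs1, Socs4 and Stat3 the reference was above background on all 7 arrays. Socs1 stayed under an unadjusted P of 0.05 with any 1 array left out, Socs4 lost it without WT2 (-0.30), and Stat3 lost it without any 1 of WT1, WT2, WT3, PRA1 or PRA3 (-0.34 to -0.25). The 7 STAT genes ran from -0.40 to -0.0022, where 47.3% of all genes lay below 0, and Stat3 alone was under P of 0.05. Of the 4 JAK kinases 2 lay below 0, of the 12 adaptors of the IL-1 and IL-17 receptors 6, and 0 of either group was under P of 0.05. The gp130 relatives and the common beta chain with TSLP also held 0 genes under P of 0.05 among 9 and 5 tested.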

How the data were processed

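The authors deposited, per array, Agilent Feature Extraction 12.0 scanner output (version per the submitters' processing notes), whose processed intensity values were background-subtracted and dye-normalized by that software, with surrogates for dim signals, together with well-above-background, saturation and outlier flags. A further deposited table for the whole series holds log2 ratios and matched the log2 ratio centered on each probe's median over arrays. Control and outlier spots were left out (1 interleukin probe lost an array) and spots of a probe were averaged. No interleukin spot was saturated. Genotypes were compared by lmFit and eBayes of limma 3.58.1 (R 4.3.3) with Benjamini-Hochberg adjustment over 34288 kept probes. This was tested on simulated data. Probe names are those of the files, and 120 of 143 interleukin accessions matched RefSeq genes of GRCm38.p6. Genes given by array were those under an unadjusted P of 0.05, those seen in 1 genotype alone and 19 central genes of the role groups. Il4, Il4i1, Il27ra and other genes given as examples were added after their values were seen. The members, lists, markers and tests were chosen with earlier results of these data known. Alternatives were normexp with offset 50 and loess, the series table, other filters, the methods' t-test, Cy5 alone, an intensity trend, quantile normalization, array weights, a replicate block, each array left out, probe medians and, added later, Cy3 alone.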

Additional observations from a re-analysis of the deposited data

Results flagged for a closer look

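Among 66 groups of 4 PRA transgenic arrays examined, 51 interleukin genes and 15 marker lists, 5 had 1 array whose gap to its neighbour, as a share of the whole range, passed Dixon's critical value for 4 values, where chance gives about 3.3. Groups of 3 wild-type arrays were not examined. For Il18rap the share was 0.926, with PRA1 lowest at -4.61. Its gland signal was above background on 0 of these 4 arrays, so that these values have no meaningful order and are given as measured. For Il21 it was 0.954, with PRA1 highest at 1.56 and the other PRA transgenic arrays between 0.04 and 0.11, but its reference was above background on 0 of these 4 arrays, and in Cy5 alone PRA1 lay among the others (-3.09, against -3.31, -2.68 and -3.40). For Il6st it was 0.958, with PRA4 highest at 1.23. The mean of the fibroblast list gave 0.933, with PRA4 highest at 2.80 among these arrays and 2.79, 2.63 and 2.18 in WT1 to WT3. That of the skeletal muscle list gave 0.943, with PRA4 at 2.33 and the other PRA transgenic arrays between -0.81 and -0.63. In WT1 to WT3 the skeletal muscle mean was 1.775, -1.07 and 3.14, so that high values were not limited to PRA4.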

How the results depend on the processing

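No interleukin probe passed an adjusted p of 0.05 under any of the 17 alternatives. The count of probes lower at P under 0.05, 3 as reported, was 10 without the filter on dim probes (6.99% of 143, against 5.17% of all probes), 5 with array weights (6.49% against 5.74%) and 2 to 5 with 1 array left out (3.26% to 5.43% of all probes). The count higher, 2 as reported, was 1 with Cy5 alone (3.98% of all probes), 0 with the replicate block (5.07%) and 1 to 4 with 1 array left out (3.38% to 6.91%). With 1.5-fold as well, the count lower, 3 as reported, was 1 under normexp with loess (0.633% of all probes), 9 without the filter (3.77%), 1 with both channels above background on all arrays (0.993%), 1 with Cy5 alone (2.08%) and 2 to 4 with 1 array left out (2.18% to 3.51%). The count higher, 0 as reported, was 1 without the filter (2.18% of all probes), 1 with Cy5 alone (1.35%), 1 with quantile normalization (2.06%), 1 with array weights (2.59%) and 0 to 2 with 1 array left out (1.85% to 3.29%). The cause of these shifts was not tested, except that dropping the filter adds probes. The median over genes stayed below 0, from -0.19 with Cy5 alone to -0.01 without PRA3. Il18r1, Il12rb1, Il17rd and Il2ra kept their sign under every alternative but Cy3 alone, which reads the reference by itself and gave 0.58, 0.03, -0.20 and 0.91. Il18r1 was under P of 0.05 in 15, Il12rb1 in 15, Il17rd in 14 and Il2ra in 8 of the alternatives that give a P. Under normexp with loess Il12rb1 was -0.27 and Il2ra -0.38, neither under it, and Il18r1 -0.64 and Il17rd 0.25, both under it. With the replicate block Il12rb1 was -0.52 and Il17rd 0.40, neither under it. Il2ra also lost it by the methods' t-test and when any 1 of WT1, WT2, PRA1, PRA2 or PRA3 was left out. Some genes given as not under P of 0.05 came under it: Il15 with normexp and loess (-0.33), with both channels above background on all arrays and with an intensity trend (both -0.34), with Cy5 alone (-0.45) and without PRA2 (-0.40), Il10rb with normexp and loess (-0.48), with array weights (-0.53), with the replicate block and without PRA4 (both -0.64), Il4 with array weights (-1.33), with the replicate block and without PRA4 (both -1.69), Il4i1 without WT2 (-1.68), Il12rb2 without PRA1 (0.71), the dimmer Il6ra probe without PRA3, a dimmer Il16 probe without WT1, Il1b without WT2 (-0.46), Il18 without WT1 (0.74), and Il4ra (-0.60) and Il11ra1 (-0.55) without WT3. Of these, Il4, Il1b and the dimmer Il16 probe passed the filter through wild-type alone, so that their P is no support for a difference. Among markers, Prf1 turned to 0.93 with Cy5 alone, and under normexp with loess Cd163 turned to -0.11 and Lor to 0.0028. Same-numbered arrays of the genotypes correlated at 0.10, -0.30 and 0.04 in their deviations, so that the numbers were not taken as pairs, and the replicate block gave 4 lower and 0 higher probes. Signal over background limits the dim probes. Slide row could not be separated from genotype.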
